A study of Mus musculus with 12 samples.

Results

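The receptors for acetylcholine, noradrenaline, dopamine and serotonin were examined in nuclear RNA from sorted mouse hippocampal neurons. Genes were taken by symbol from the deposited count table, and 49 of its 24015 rows matched: 5 muscarinic and 16 nicotinic acetylcholine receptor genes, 6 alpha and 3 beta adrenergic, 5 dopamine and 14 serotonin receptor genes. Of the 49, 40 reached a count of 10 in 3 or more of the 12 libraries and were tested. The other 9 were below that limit. They were Chrm5, with a highest count of 21 in any library, Chrna3 (27), Chrng (9), Chrnb3 (7), Chrna10 (6), Chrna9 (1), Drd3 (1), Drd4 (1) and Chrna6, which was 0 in all 12 libraries.

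The 12 libraries carry the titles Basal, Early, Late and Reactivated, with 3 of each. All came from mice that carried a tamoxifen-activated Cre recombinase under the Arc promoter (ArcCreERT2) together with a floxed-stop yellow fluorescent reporter at R26R, with the genotype given as +/+, so that every group has both alleles. Every group had 1 dose of 4-hydroxytamoxifen 1 h before contextual fear conditioning according to the shared protocol, after 24 h in the dark, and antibodies against NeuN, Arc and GFP were used to sort the nuclei after fixation with 1% paraformaldehyde. Brains were collected 1.5 to 2 h after conditioning, or on day 5 after 48 h in the dark and a return to the normal light cycle, with some mice meeting the fear cue again. A library is a pool of 10 to 12 mice, with 10000 nuclei per condition. The title is the only label that separates the groups: the treatment field gives day 0 and no recall for all 12, the age is not given in the sources used here, and no label states which sort gate goes with which title. A Cre driven by Arc marks only cells in which that promoter was active while the drug was present.

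Muscarinic, adrenergic, dopamine and most serotonin receptors are G-protein-coupled. Receptors coupled to Gq/11 activate phospholipase C, those coupled to Gs raise cyclic AMP, and those coupled to Gi/o lower cyclic AMP and open potassium channels. Nicotinic receptors and the Htr3 serotonin receptors are ion channels made of 5 subunits, so a single subunit gene does not define a receptor. In the hippocampus these transmitters arrive on axons from cells elsewhere in the brain, and the receptors set how excitable the principal cells and interneurons are and how readily their synapses change.

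The libraries held 4838166 to 10255713 counts in Basal, 6378949 to 9653364 (Early), 9705505 to 11120255 (Late) and 7356465 to 10327059 (Reactivated). The receptor genes together took 0.0419% to 0.0747% of a library. Levels below are normalized counts, that is counts brought to a common library size with TMM factors, and a gene is said to have risen or fallen only where the adjusted p of edgeR's quasi-likelihood test was under 0.05 (Benjamini-Hochberg over the 15668 genes tested). The ribosomal RNA precursor Rn45s took 4.72% to 12.2% of counts in Basal and 6.23% to 12.9% (Early), but 27.9% to 36.5% (Late) and 18.8% to 27.7% (Reactivated). The ranges of Late and Reactivated did not overlap those of Basal and Early, so the Rn45s share and the group cannot be told apart in these comparisons. The ranges of Late and Reactivated met closely but did not overlap each other, so the same limit holds for Reactivated against Late.

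Markers of hippocampal cell types also moved with the groups. The summed level of 6 neuron markers was 22000 to 24600 (Basal), 25100 to 28500 (Early), 29700 to 30000 (Late) and 32400 to 35800 (Reactivated), with none at 0 in any library. Of these 6, 2 rose in Early, 2 in Late and 3 in Reactivated against Basal, and 0 fell. The 7 dentate granule cell markers summed to 7660 to 10800 (Basal), 1830 to 2220 (Early), 1420 to 1570 (Late) and 1290 to 2820 (Reactivated), and 7 of 7 fell in each of the other groups against Basal. The 6 CA1 pyramidal markers summed to 617 to 1020 (Basal), 1840 to 2130 (Early), 2560 to 2850 (Late) and 2610 to 3110 (Reactivated), and 6 of 6 rose in each against Basal. No granule cell or CA1 marker was at 0 in any library. In bulk nuclei such as these, fewer nuclei of a type and less RNA per nucleus cannot be told apart, and this holds for every receptor below.

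Promoter windows of 250 bases before the RefSeq start (GRCm38.p6) were at hand for 37 of the 49 genes and for 18 of the 24 that passed in some comparison. Shown here are both windows of Htr1d, the gene with the highest fold change, those of Chrm3 and Htr1f, the 2 genes that rose in all 3 groups against Basal, and that of Adra2a, which holds TGACG (in capitals), the core of the cyclic AMP response element. They run 5′ to 3′ on the gene's strand, and lie at chr4:136423274-136423523 (plus strand), chr4:136424362-136424611 (plus), chr13:10360804-10361053 (minus), chr16:65105785-65106034 (minus) and chr19:54045009-54045258 (plus), in the order printed.
Htr1d, first window: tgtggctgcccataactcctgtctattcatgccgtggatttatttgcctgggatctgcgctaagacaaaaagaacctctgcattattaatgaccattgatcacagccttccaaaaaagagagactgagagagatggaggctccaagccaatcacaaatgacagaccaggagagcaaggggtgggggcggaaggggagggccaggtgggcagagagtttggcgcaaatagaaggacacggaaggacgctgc
Htr1d, second window: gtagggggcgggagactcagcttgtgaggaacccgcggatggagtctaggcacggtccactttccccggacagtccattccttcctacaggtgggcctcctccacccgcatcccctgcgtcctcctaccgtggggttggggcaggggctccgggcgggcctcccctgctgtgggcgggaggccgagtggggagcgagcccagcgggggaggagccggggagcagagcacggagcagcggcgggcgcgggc
Chrm3: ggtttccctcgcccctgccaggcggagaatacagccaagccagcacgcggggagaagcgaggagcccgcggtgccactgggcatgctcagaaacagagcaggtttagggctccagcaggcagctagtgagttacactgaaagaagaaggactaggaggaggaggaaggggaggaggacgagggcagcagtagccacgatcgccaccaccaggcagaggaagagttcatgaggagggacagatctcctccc
Htr1f: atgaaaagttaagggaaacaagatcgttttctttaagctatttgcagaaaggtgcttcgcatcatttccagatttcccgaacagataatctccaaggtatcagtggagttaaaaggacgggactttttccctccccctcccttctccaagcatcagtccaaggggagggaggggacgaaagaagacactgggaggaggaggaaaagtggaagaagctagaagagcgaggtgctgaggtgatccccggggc
Adra2a: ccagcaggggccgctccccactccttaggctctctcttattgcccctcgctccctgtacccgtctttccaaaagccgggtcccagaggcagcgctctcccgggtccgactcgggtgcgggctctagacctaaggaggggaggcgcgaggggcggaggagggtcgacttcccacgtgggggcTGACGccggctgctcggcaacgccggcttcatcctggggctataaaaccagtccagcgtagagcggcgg
The windows were searched on both strands for the full cyclic AMP response element TGACGTCA, its core TGACG, which also lies within the full element, the AP-1 site TGANTCA and the EGR site GCGNGGGCG. Among the 18 genes that passed and had a window, 0 held the full element, 3 its core (Adra2a, Chrna5 and Chrnb1), 2 the AP-1 site (Chrna1 and Htr2b) and 0 the EGR site. Over all 32851 windows of the same length the shares were 1.55%, 17.8%, 6.75% and 4.70%. These are matches of letters only.

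Across the receptor genes, the comparison of Late with Basal gave the most calls. In Late, 14 of the 40 tested genes rose and 5 fell against Basal, 47.5% in all, while 49.1% of all tested genes passed (25.4% rose and 23.6% fell). The median log2 fold change was 0.30 for the receptor genes and -0.03 for all genes. The receptors as a set were therefore called about as often as genes in general, and the results below concern which receptors went which way. With libraries scaled to the same total, which shifted the median of all genes to -0.87, 5 receptor genes rose and 14 fell. The split was 11 and 10 with the same total without Rn45s (median of all genes -0.40) and 11 and 9 with upper quartile scaling (-0.26). With the Rn45s share as a covariate, 2 genes passed in this comparison, Chrm4 and Htr1d, and 1.31% of all genes.

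In Reactivated, 10 of 40 rose and 7 fell against Basal, beside 39.4% of all genes (20.6% rose and 18.8% fell), with a median of 0.08 against 0.02 for all genes. Scaling to the same total changed that split to 4 and 11, with the median of all genes at -0.46, and the Rn45s covariate left 3 calls, Adra2a, Chrm4 and Chrna4, and 3.99% of all genes. In Early, 2 of 40 rose and 1 fell against Basal, beside 6.03% of all genes (3.36% rose and 2.66% fell), and the medians were 0.19 and 0.01. Scaling to the same total, or none, kept the 2 that rose and lost the 1 that fell. In this comparison the replicate numbers were taken to pair the libraries, from the data and not the labels. The pairing is uncertain, since only 4 of 6 libraries correlated best with their own number. The closest pair, Basal 3 and Early 3 (0.461), had the highest Rn45s shares of their groups (12.2% and 12.9%). Calls from a block drawn from the same counts give no independent support. A fit of Basal and Early alone with this replicate block, added after seeing the data, called 6 that rose and 5 that fell, beside 17.8% of all genes. Besides Chrm3, Htr1f and Htr4 (adjusted p 0.0194), these were Adra1d (0.55, adjusted p 0.0302), Chrm4 (0.76, adjusted p 0.00799), Htr1a (0.75, adjusted p 0.0123) and Htr2a (0.90, adjusted p 0.0338), which were higher in Early, and Adra1b (-1.02, adjusted p 0.0323), Chrna2 (-0.45, adjusted p 0.0438), Chrnb1 (-0.80, adjusted p 0.0177) and Chrne (-1.28, adjusted p 0.0444), which were lower. The calls named below are those of the fit of all 12 libraries. Against Early, 9 rose and 6 fell in Late, beside 42.3% of all genes (22% rose and 20.4% fell), with medians of 0.12 and -0.03. That split was 3 and 15 under scaling to the same total, 5 and 9 without Rn45s, 6 and 8 with upper quartile scaling and 2 and 7 on unscaled values. Against Early, 2 rose and 6 fell in Reactivated, beside 26.2% of all genes (13.5% rose and 12.7% fell), with medians of -0.15 and 0.03, and the split was 2 and 12 under scaling to the same total and 0 and 5 on unscaled values. Between the 2 later groups, 0 receptor genes rose and 7 fell in Reactivated against Late with edgeR, beside 22.6% of all genes (10.3% rose and 12.3% fell). There 12 of the 40 had an unadjusted p under 0.05, DESeq2 called 0 that rose and 9 that fell, and scaling to the same total called 1 and 4. Comparisons with Basal share their Basal libraries, and likewise for Early and Late, so their values are set side by side only. With the Rn45s covariate no receptor gene passed in Late or Reactivated against Early (0.6% and 0% of all genes did), and in Reactivated against Late the calls of Adra1d (adjusted p 0.491) and Htr3b (0.0821) were lost and the other 5 held. In the test of any difference among the 4 groups, 21 of the 40 passed, beside 58.6% of all genes.

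Libraries were also compared without a model, by counting genes for which all 3 libraries of one group lay on one side of all 3 of the other. In Early against Basal this held for 15 of the 40, 10 above and 5 below, beside 23.4% of all genes (11.9% above and 11.5% below). In Late against Basal it held for 25, with 18 above and 7 below, beside 62.5% (31.3% and 31.2%). In Reactivated against Basal it held for 19, with 10 above and 9 below, beside 45.8% (22.8% and 23%). Late against Early gave 24, with 14 above and 10 below, beside 59.9% (29.5% and 30.4%). Reactivated against Early gave 15, with 3 above and 12 below, beside 39.1% (19.2% and 19.9%), and Reactivated against Late gave 11, with 1 above and 10 below, beside 39.7% (18.4% and 21.2%). The gene above in the last comparison was Drd5.

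**Figure D1:**
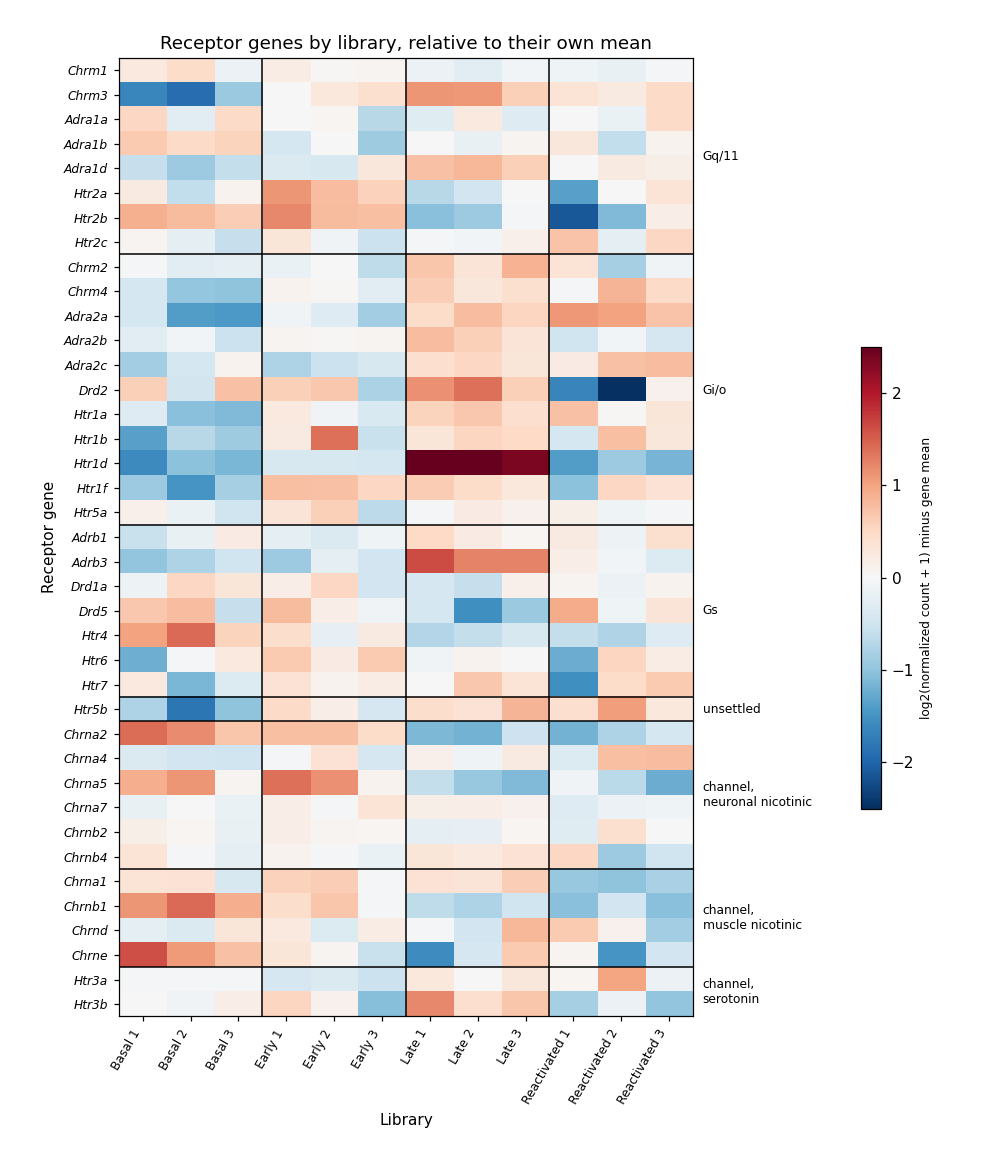
Each row is 1 of 39 of the tested receptor genes and each column 1 library; colour gives log2(normalized count + 1) minus the gene's mean over the 12 libraries, and values past the ends of the scale take the end colour. Rows are grouped by G-protein coupling or channel type. The 3 Late libraries are dark red for Htr1d, and Chrna2, Chrnb1 and Htr4 are blue in Late and Reactivated.

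Among the muscarinic receptors, Chrm3, which couples to Gq/11 and is known from principal cells, was higher in all 3 other groups than in Basal. Chrm3 had normalized counts of 145, 120 and 236 (Basal), 449, 543 and 599 (Early), 973, 954 and 684 (Late), and 571, 530 and 634 (Reactivated). The Basal libraries were the lowest, the Late libraries the highest, and no other group overlapped Basal. It rose 3.14-fold in Early (log2 fold change 1.65 ± 0.23 SE, adjusted p 0.000433), 5.15-fold in Late (2.36 ± 0.23, adjusted p 2.02e-06) and 3.42-fold in Reactivated (1.78 ± 0.23, adjusted p 9.04e-05). It also rose 1.64-fold in Late against Early (0.71 ± 0.21, adjusted p 0.0155), a call that was lost without Early 1, Late 1 or Late 2 (adjusted p 0.0613 to 0.0728) and that turned to -0.05 under scaling to the same total. The rise in Early was called under every alternative run, with log2 fold changes of 1.46 to 2.00. The CA1 markers given above rose in the same 3 comparisons. Of 7 CA3 and CA2 pyramidal markers, 5 rose in Early, 6 in Late and 6 in Reactivated against Basal, and 0 fell. They summed to 1030 to 1350 (Basal), 2360 to 3880 (Early), 3740 to 4540 (Late) and 2440 to 2870 (Reactivated). The part of either list in the Chrm3 result was not tested.

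Chrm4 and Chrm2 couple to Gi/o, and both are known as receptors that damp transmitter release. Chrm4 had normalized counts of 99.7, 68.5 and 66.7 (Basal), 145, 139 and 111 (Early), 207, 166 and 178 (Late), and 131, 244 and 190 (Reactivated). All libraries of the other groups lay above all 3 Basal libraries, and the spread was widest in Reactivated. Chrm4 rose 2.37-fold in Late (1.24 ± 0.24, adjusted p 0.000634) and 2.44-fold in Reactivated (1.29 ± 0.24, adjusted p 0.001) against Basal, and the second call held under every alternative run, while the first was lost under scaling to the same total (0.243). Chrm2 had normalized counts of 42.7, 35.9 and 36.6 (Basal), 38.6, 43.5 and 27.6 (Early), 70.9, 54.2 and 80.3 (Late), and 55.1, 23.8 and 40.9 (Reactivated). The Late libraries lay above those of Basal and Early, and Reactivated overlapped all groups. Chrm2 rose 1.79-fold in Late against Basal (0.84 ± 0.31, adjusted p 0.0366) and 1.87-fold against Early (0.91 ± 0.31, adjusted p 0.0287). Both calls were close to the limit: the first was lost without any 1 of the 3 Basal libraries, Late 1 or Late 3 (adjusted p 0.071 to 0.129), and the second without Early 1, Early 3, Late 1 or Late 3 (0.0667 to 0.107). Scaling to the same total gave 0.02 for Chrm2 in Late against Basal (adjusted p 0.97). In the annotation an exon of the noncoding gene 9330158H04Rik overlaps Chrm2 on the opposite strand, and that gene rose in Late too (0.96 ± 0.24, adjusted p 0.00478). The strand setting of the counting is not given in the sources used here, so reads of these 2 genes may not be separated. Chrm1, the Gq/11-coupled muscarinic receptor of pyramidal cells, passed in no comparison, with 1140 ± 235 (Basal), 1060 ± 60.9 (Early), 882 ± 61.3 (Late) and 913 ± 40.1 (Reactivated) (mean ± SD, n = 3).

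Of the 10 nicotinic subunit genes tested, 0 rose and 3 fell in Late against Basal (25.4% and 23.6% of all genes), with a median log2 fold change of 0.06 against -0.03 for all genes. In Reactivated 1 rose and 5 fell (20.6% and 18.8% of all genes), with a median of -0.65 against 0.02. Chrna2, a subunit known in the hippocampus from interneurons of stratum oriens, had normalized counts of 218, 187 and 134 (Basal), 139, 139 and 113 (Early), 37.2, 35.7 and 57 (Late), and 35.8, 47.5 and 60.4 (Reactivated). Late and Reactivated lay wholly below Basal and Early, and Early overlapped Basal. Chrna2 fell 4.07-fold in Late (-2.03 ± 0.26, adjusted p 2.50e-05) and 3.68-fold in Reactivated (-1.88 ± 0.26, adjusted p 0.000143) against Basal, and 2.97-fold (adjusted p 0.000288) and 2.68-fold (adjusted p 0.00229) against Early. Interneuron markers summed to 4630 to 5420 (Basal), 2730 to 3970 (Early), 2760 to 2980 (Late) and 3180 to 3360 (Reactivated), with 0 of 12 at 0 in any library. Of those 12 markers, 4 fell and 0 rose in Late against Basal, and 5 fell and 2 rose in Reactivated; their part in the Chrna2 result was not tested.

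Chrna5, an accessory subunit that changes the calcium entry and desensitization of nicotinic channels, had normalized counts of 93.3, 107 and 51.7 (Basal), 130, 110 and 52.6 (Early), 32.4, 25.1 and 22.4 (Late), and 46.8, 30.8 and 20.4 (Reactivated). Late and Reactivated lay below both other groups in every library, and Basal 3 and Early 3 were low within their groups. Chrna5 fell 3.12-fold in Late against Basal (-1.64 ± 0.40, adjusted p 0.00372) and 3.66-fold against Early (-1.87 ± 0.40, adjusted p 0.00183). In Reactivated it fell 2.59-fold against Basal (-1.38 ± 0.39, adjusted p 0.013) and 3.04-fold against Early (-1.61 ± 0.39, adjusted p 0.00942). The first of these was lost without Basal 2 (adjusted p 0.0622) or Reactivated 3 (0.0518), and the second without Early 1 (0.0517). Chrna4, which with Chrnb2 forms the main high-affinity nicotine receptor of the brain, had normalized counts of 127, 117 and 116 (Basal), 160, 211 and 122 (Early), 180, 152 and 192 (Late), and 129, 276 and 282 (Reactivated). Reactivated 1 was barely above Basal 1, while the other 2 Reactivated libraries were the highest of the 12. Chrna4 rose 1.93-fold in Reactivated against Basal (0.95 ± 0.26, adjusted p 0.0118), which scaling to the same total ended (adjusted p 0.231). Chrna7, Chrnb2 and Chrnb4 passed in no comparison: Chrna7 averaged 181 ± 13.4, 219 ± 28.9, 215 ± 3.84 and 171 ± 13.7 in Basal, Early, Late and Reactivated, and Chrnb2 226 ± 25.9, 240 ± 10.0, 205 ± 23.1 and 236 ± 57.6.

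Subunits known from the muscle receptor were also counted in these nuclei. Chrnb1, the beta subunit of muscle, had normalized counts of 70, 87.5 and 61 (Basal), 43.8, 52.4 and 30.9 (Early), 20.4, 18.5 and 22.4 (Late), and 15.1, 22.9 and 15.1 (Reactivated). Every group after Basal lay below it, and Late and Reactivated lay below Early as well. Chrnb1 fell 3.52-fold in Late (-1.82 ± 0.31, adjusted p 0.000243) and 4.04-fold in Reactivated (-2.02 ± 0.31, adjusted p 0.0003) against Basal. Against Early it fell 2.06-fold in Late (adjusted p 0.0144), lost without Early 2 (0.0774) or Late 2 (0.0556), and 2.37-fold in Reactivated (adjusted p 0.0112), lost without Early 2 (0.0651). Chrna1, the alpha subunit of muscle, had normalized counts of 99.7, 101 and 58.8 (Basal), 118, 121 and 76 (Early), 101, 97.8 and 120 (Late), and 39.9, 38.7 and 44.4 (Reactivated). The 3 Reactivated libraries lay close together and below the other 9. Chrna1 fell in Reactivated against Basal (2.08-fold, -1.06 ± 0.26, adjusted p 0.00617), Early (2.55-fold, -1.35 ± 0.26, adjusted p 0.0031) and Late (2.58-fold, -1.37 ± 0.26, adjusted p 0.0016), and the last call held under every alternative run. Chrne, the epsilon subunit of the adult muscle receptor, was low throughout, at 29.8, 20.2 and 15.8 (Basal), 11.5, 9.66 and 5.85 (Early), 2.4, 6.61 and 14.9 (Late), and 9.64, 2.64 and 6.22 (Reactivated). The Basal libraries were the highest, and Late 3 came just under Basal 3. Chrne fell 3.61-fold in Reactivated against Basal (-1.85 ± 0.63, adjusted p 0.0299), a call lost without Basal 1, Basal 2, Reactivated 2 or Reactivated 3 (0.0585 to 0.103). Chrnd passed in no comparison, with group means of 32 to 39.

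**Figure D2:**
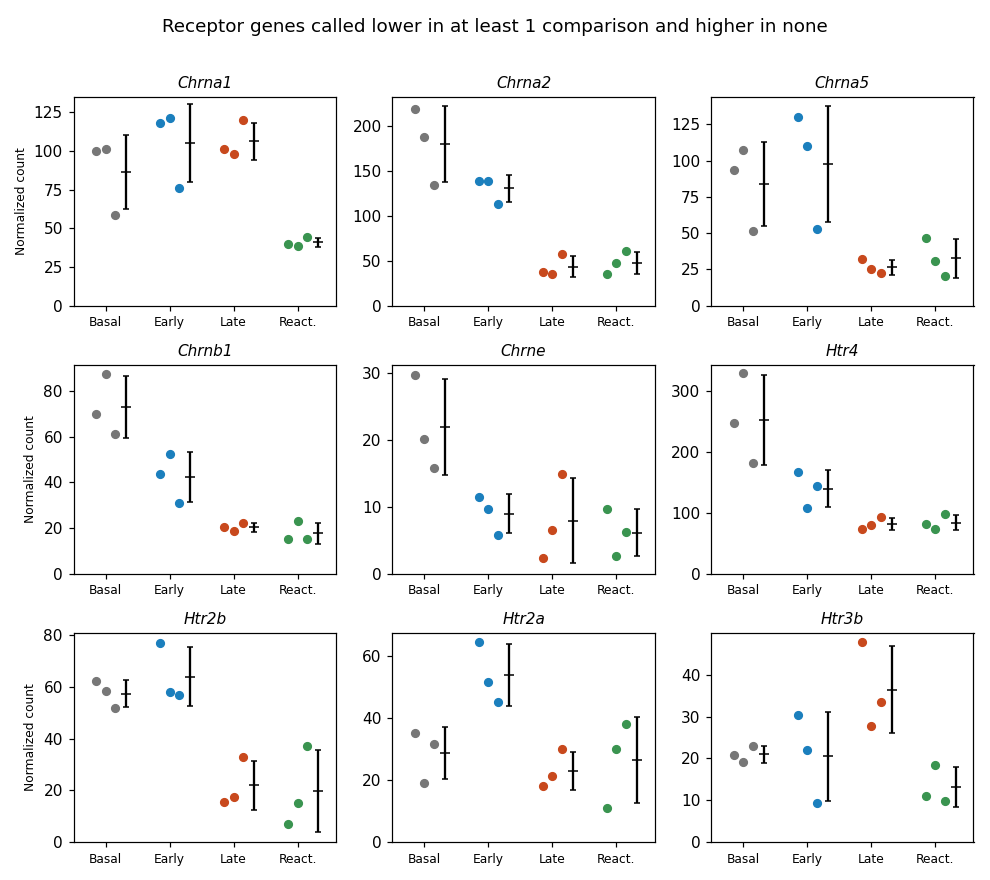
Normalized counts per library (points, 3 per group) of the 9 receptor genes that fell in at least 1 comparison and rose in none, with mean and SD as black bars; each panel has its own axis from 0. Chrna2, Chrna5, Chrnb1 and Htr4 are low in Late and Reactivated, and Chrna1 in Reactivated alone.

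Among the receptors for noradrenaline, 4 of the 6 alpha receptor genes rose in Late against Basal and 0 fell, beside 25.4% and 23.6% of all genes. Under scaling to the same total the calls of Adra1d and of the beta receptor Adrb3 held and those of the 3 alpha-2 receptors were lost (adjusted p 0.052 for Adra2a, 0.986 for Adra2b and 0.84 for Adra2c). In Reactivated against Basal the same scaling ended the calls of Adra1d (0.165) and Adra2c (0.118), in Late against Early those of Adra1d (0.61), Adra2a (0.556) and Adra2c (0.422), and in Reactivated against Late those of Adra1d (0.363) and Adra2b (0.055). Adra2a, the Gi/o-coupled receptor through which noradrenaline limits its own release and damps its target cells, had normalized counts of 40.2, 20.2 and 19.4 (Basal), 51.1, 43.5 and 29.2 (Early), 75.7, 93.8 and 79.4 (Late), and 116, 110 and 89.7 (Reactivated). Basal and Early overlapped, and all 6 later libraries lay above both. Adra2a rose 3.19-fold in Late (1.67 ± 0.31, adjusted p 0.000437) and 4.04-fold in Reactivated (2.01 ± 0.30, adjusted p 0.000266) against Basal, and the second call held under every alternative run. Against Early it rose 2.01-fold in Late (adjusted p 0.0116), lost without Late 2 (0.0505), and 2.55-fold in Reactivated (adjusted p 0.00494). The Adra2a window was printed above because it holds TGACG, as do 17.8% of all windows, and a part of this match in the Adra2a result was not tested. A window of Chrna5 and that of Chrnb1, genes that fell, hold TGACG too. So do windows of Adrb1, Chrnb2 and Htr7, which passed in no comparison.

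Adra2b, a second alpha-2 receptor, had normalized counts of 284, 330 and 238 (Basal), 361, 353 and 362 (Early), 594, 520 and 435 (Late), and 245, 331 and 257 (Reactivated). Late was the highest group in every library, and Reactivated overlapped Basal. Adra2b rose 1.82-fold in Late against Basal (0.87 ± 0.17, adjusted p 0.000692) and fell 1.86-fold in Reactivated against Late (-0.89 ± 0.17, adjusted p 0.00141). Its rise of 1.44-fold against Early (adjusted p 0.0192) was lost without Early 1, Early 2, Late 1 or Late 2 (0.0527 to 0.102), and under scaling to the same total the log2 values were 0.00 against Basal and -0.24 against Early. Adra2c, the third alpha-2 receptor, had normalized counts of 54.4, 74.1 and 107 (Basal), 58.5, 69 and 76 (Early), 135, 145 and 125 (Late), and 116, 169 and 172 (Reactivated). All 6 later libraries lay above all of Basal and Early. Adra2c rose 1.69-fold in Late (0.76 ± 0.24, adjusted p 0.018) and 1.92-fold in Reactivated (0.94 ± 0.24, adjusted p 0.00718) against Basal, and 1.98-fold (adjusted p 0.00481) and 2.25-fold (adjusted p 0.0044) against Early. The first call was lost without Basal 1, Basal 2 or Late 2 (0.0591 to 0.0943), and under scaling to the same total that value was -0.06.

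Adra1d, a Gq/11-coupled alpha-1 receptor, had normalized counts of 142, 112 and 140 (Basal), 165, 159 and 259 (Early), 353, 379 and 319 (Late), and 212, 248 and 234 (Reactivated). Late was the highest group and Reactivated lay between it and Basal without overlap. Adra1d rose 2.66-fold in Late (1.41 ± 0.19, adjusted p 4.11e-05) and 1.76-fold in Reactivated (0.81 ± 0.19, adjusted p 0.00466) against Basal, and 1.80-fold in Late against Early (adjusted p 0.00236). Its 1.51-fold fall in Reactivated against Late (adjusted p 0.0327) was lost without Late 1, Late 2 or any of the 3 Reactivated libraries (0.0506 to 0.12). Adra1a and Adra1b, the other Gq/11-coupled members, passed in no comparison and averaged 75.9 ± 21.1 and 45.3 ± 2.64 in Basal and 58.0 ± 13.9 and 29.4 ± 2.72 in Late.

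Adrb3, a beta receptor that raises cyclic AMP through Gs, was highest in Late. Adrb3 had normalized counts of 33.7, 39.3 and 47.3 (Basal), 35.5, 58 and 48.4 (Early), 211, 160 and 161 (Late), and 75.7, 64.2 and 53.3 (Reactivated). The 3 Late libraries stood apart from all others, with Reactivated just above Basal. Adrb3 rose 4.36-fold in Late against Basal (2.12 ± 0.24, adjusted p 8.51e-06) and 3.71-fold against Early (1.89 ± 0.24, adjusted p 2.75e-05), and fell 2.77-fold in Reactivated against Late (-1.47 ± 0.23, adjusted p 0.000391). This fall held under every alternative run. Adrb3 also rose 1.58-fold in Reactivated against Basal (0.66 ± 0.25, adjusted p 0.0488), a call that was lost under 19 of 24 alternatives, among them the replicate block (0.0693) and leaving out Basal 1, Basal 2, Early 2, Early 3, any Late library, Reactivated 1 or Reactivated 2 (0.0505 to 0.157). Adrb1, another beta receptor, passed in no comparison, with 151 ± 40.3 (Basal), 143 ± 13.3 (Early), 200 ± 33.2 (Late) and 190 ± 33.5 (Reactivated).

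**Figure D3:**
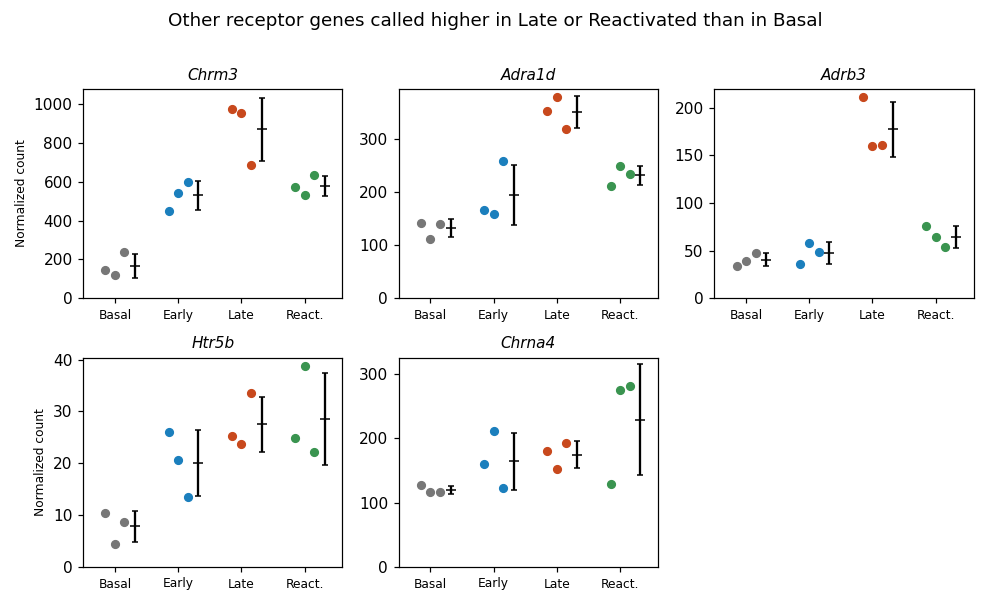
Normalized counts per library (points, 3 per group) of 5 receptor genes outside the Gi/o class that rose in Late or Reactivated against Basal, with mean and SD as black bars; each panel has its own axis from 0. Adrb3 stands apart in Late, at 160 to 211.

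Dopamine receptors gave no call. Of the 5 genes, Drd1a, Drd2 and Drd5 were tested and none passed in any comparison with edgeR. Drd1a, the Gs-coupled receptor known from granule cells, was 31.1 to 49.4 (Basal), 24.2 to 49.7 (Early), 22.5 to 37.4 (Late) and 30.8 to 36.4 (Reactivated), with all groups overlapping. Drd5, its Gs-coupled relative, was 8.61 to 23.6 (Basal), 12.5 to 24 (Early), 3.96 to 9.61 (Late) and 12.3 to 26.2 (Reactivated). The Late libraries lay below those of Early and Reactivated (log2 fold change of Late against Basal -1.37 ± 0.56, adjusted p 0.0549). Drd2, the Gi/o-coupled receptor that marks mossy cells of the hilus, was 10.4, 4.49 and 11.5 (Basal), 10.4, 11 and 3.34 (Early), 15.6, 18.5 and 10.3 (Late), and 1.38, 0 and 7.1 (Reactivated). Its highest count was 16, and the difference of Reactivated from Late (-2.26 ± 0.82, adjusted p 0.0604) did not pass. The summed level of 5 mossy cell markers was 783 to 803 (Basal), 890 to 930 (Early), 3620 to 4620 (Late) and 1100 to 1370 (Reactivated), with 3 of 5 rising in Late against Basal and none at 0. Most of the Late sum came from Csf2rb2, at 424 ± 40 in Basal and 3310 ± 502 in Late, while Calb2 was 70.9 ± 6.4 and 67.2 ± 8.92 and Nmb 31.5 ± 8.73 and 34.1 ± 3.74, 3 genes singled out after their values were seen. Their part in the Drd2 values was not tested.

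The serotonin receptors held both the largest rise and several falls: of 14 tested, 5 rose and 2 fell in Late against Basal, beside 25.4% and 23.6% of all genes, so calls were about as frequent as among genes in general. Htr1d, a Gi/o-coupled receptor known as a brake on release from serotonin and trigeminal terminals, had normalized counts of 15.5, 23.6 and 21.5 (Basal), 36.5, 36.6 and 35.9 (Early), 393, 435 and 253 (Late), and 17.9, 25.5 and 21.3 (Reactivated). The 3 Late libraries lay far above all others, and Reactivated overlapped Basal. Htr1d rose 17.5-fold in Late against Basal (4.13 ± 0.26, adjusted p 5.88e-08) and 9.86-fold against Early (3.30 ± 0.24, adjusted p 2.03e-07), and fell 16.4-fold in Reactivated against Late (-4.03 ± 0.25, adjusted p 1.88e-07). The first and the last of these held under every alternative run, with log2 values of -4.24 to -3.64 for the last. No exon of another gene overlapped Htr1d in the annotation. The lists of mossy cell and microglia markers were highest in the same 3 libraries. The 6 microglia markers summed to 653 to 794 (Basal), 623 to 770 (Early), 5660 to 9730 (Late) and 814 to 2040 (Reactivated). Most of the Late sum came from Itgam (3220 to 4500) and Cx3cr1 (2380 to 5180), while P2ry12 was 9.25 to 19.6 in Late and 52.8 to 72.5 in Basal, 3 genes singled out after their values were seen. Of the 5 microglia markers tested, 3 rose and 2 fell in Late against Basal, and Tmem119, not tested, was at 0 in Early 1 and Reactivated 3. Highest in Late as well was the list of 6 habenula and thalamus markers. The latter summed to 220 to 407 (Basal), 408 to 496 (Early), 944 to 1200 (Late) and 438 to 845 (Reactivated), with none at 0, and 3 of 6 rose and 1 fell in Late against Basal. Their part in the Htr1d result was not tested.

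Htr1f, a second Gi/o-coupled receptor, was the other gene that rose in all 3 groups against Basal. Htr1f had normalized counts of 27.2, 18 and 28.7 (Basal), 87.7, 86.9 and 74.3 (Early), 80.5, 71.3 and 62.6 (Late), and 24.8, 74.8 and 66.6 (Reactivated). Early and Late lay wholly above Basal, while Reactivated 1 had a Basal level. Htr1f rose 3.33-fold in Early (1.74 ± 0.34, adjusted p 0.00589), 2.86-fold in Late (1.52 ± 0.35, adjusted p 0.00226) and 2.27-fold in Reactivated (1.18 ± 0.35, adjusted p 0.0148), and the call in Early held under every alternative run. The call in Reactivated was lost without Basal 2 (adjusted p 0.0668) or Reactivated 2 (0.0637). Htr1a, the Gi/o-coupled receptor by which serotonin inhibits pyramidal cells, had normalized counts of 88.1, 52.8 and 50.9 (Basal), 130, 104 and 84.4 (Early), 163, 176 and 148 (Late), and 183, 112 and 136 (Reactivated). All Late and Reactivated libraries exceeded all Basal libraries, and Early overlapped Basal and Reactivated. Htr1a rose 2.57-fold in Late (1.36 ± 0.26, adjusted p 0.000558) and 2.26-fold in Reactivated (1.18 ± 0.26, adjusted p 0.00285) against Basal. The CA1 markers rose in the same comparisons, as did 6 of 7 CA3 and CA2 markers in each, and the part of either list in the Htr1a result was not tested. Htr1b, the terminal autoreceptor of serotonin axons, was low, at 3.89, 6.73 and 5.74 (Basal), 13.6, 31.7 and 7.52 (Early), 14.4, 17.2 and 16.8 (Late), and 8.26, 20.2 and 14.2 (Reactivated). Every library of the other groups lay above Basal, with Early 2 the highest. Htr1b rose 2.88-fold in Late against Basal (1.53 ± 0.60, adjusted p 0.0452), which was lost without any Basal or Late library, Early 1 or Reactivated 3 (0.0501 to 0.134). Htr5b, whose coupling is not settled, had normalized counts of 10.4, 4.49 and 8.61 (Basal), 26.1, 20.7 and 13.4 (Early), 25.2, 23.8 and 33.6 (Late), and 24.8, 38.7 and 22.2 (Reactivated). All 9 other libraries lay above Basal. Htr5b rose 3.50-fold in Late (1.81 ± 0.44, adjusted p 0.00381) and 3.63-fold in Reactivated (1.86 ± 0.44, adjusted p 0.0047) against Basal. Under scaling to the same total, the calls in Late against Basal were lost for Htr1a (0.134), Htr1b (0.335), Htr1f (0.117) and Htr5b (0.0887) and held for Htr1d, and in Reactivated those of Htr1a (0.0699) and Htr1f (0.123) were lost.

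Htr4, a Gs-coupled receptor that is prominent in dentate granule cells, fell in every group against Basal. Htr4 had normalized counts of 247, 329 and 181 (Basal), 167, 107 and 144 (Early), 73.3, 80.6 and 92.4 (Late), and 81.2, 73 and 97.7 (Reactivated). Basal lay above Early and Early above both later groups, which overlapped each other. Htr4 fell 3.05-fold in Late (-1.61 ± 0.24, adjusted p 8.47e-05) and 2.99-fold in Reactivated (-1.58 ± 0.24, adjusted p 0.000267) against Basal. The fall of 1.81-fold in Early (-0.86 ± 0.23, adjusted p 0.0373) was lost in 11 of 25 alternatives. Among these were leaving out any Basal library but Basal 3, any Early library, Late 1 or Late 2 (0.0505 to 0.223). It was also lost with the replicate block over all 12 libraries (0.0578) and in a fit of Basal and Early alone without a block. With the block, whose pairing was drawn from the data, the fit of Basal and Early alone called Htr4 (0.0194). Against Early it fell 1.69-fold in Late (adjusted p 0.0206), lost without Early 1, Late 1 or Late 2 (0.0626 to 0.093), and 1.65-fold in Reactivated (adjusted p 0.0376), lost without Early 1, Early 3, Late 2, Reactivated 1 or Reactivated 2 (0.0515 to 0.153) and with the replicate block (0.0529). The granule cell markers given above fell in the same comparisons with Basal, 7 of 7 each, and their part in the Htr4 result was not tested.

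Htr2b, a Gq/11-coupled receptor, had normalized counts of 62.2, 58.4 and 51.7 (Basal), 77.2, 58 and 56.8 (Early), 15.6, 17.2 and 32.7 (Late), and 6.88, 15 and 37.3 (Reactivated). All 6 later libraries lay below Basal and Early, with a wide spread in Reactivated. Htr2b fell 2.56-fold in Late (-1.36 ± 0.44, adjusted p 0.0192) and 2.78-fold in Reactivated (-1.48 ± 0.44, adjusted p 0.016) against Basal, and 2.86-fold (adjusted p 0.012) and 3.10-fold (adjusted p 0.0146) against Early. Both calls in Late were lost without Late 1 or Late 2 (0.054 to 0.0802), and those in Reactivated without Reactivated 2 against Basal (0.0543) and without Early 1 against Early (0.0633). Without Reactivated 3, the values in Reactivated were -2.31 against Basal and -2.47 against Early. Exons of Psmd1, a proteasome subunit gene on the opposite strand, overlap Htr2b in the annotation, and Psmd1 rose in Late against Basal (0.91 ± 0.20, adjusted p 0.00177), so the 2 genes moved in opposite directions. Whether their reads were kept apart by strand is not known here either. Htr2a, the Gq/11-coupled target of classical psychedelics, had normalized counts of 35, 19.1 and 31.6 (Basal), 64.7, 51.7 and 45.1 (Early), 18, 21.1 and 29.9 (Late), and 11, 29.9 and 38.2 (Reactivated). Early was the highest group and overlapped none. Htr2a fell 2.30-fold in Late against Early (-1.20 ± 0.40, adjusted p 0.0243), lost without Early 1, Early 2, Late 1 or Late 2 (0.0568 to 0.0978), and passed in no other comparison.

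Of the serotonin-gated channel subunits, Htr3b had normalized counts of 20.7, 19.1 and 23 (Basal), 30.3, 22.1 and 9.19 (Early), 48, 27.7 and 33.6 (Late), and 11, 18.5 and 9.77 (Reactivated). Late lay above Reactivated and Basal, and Early spread across all groups. Htr3b fell 2.74-fold in Reactivated against Late (-1.46 ± 0.45, adjusted p 0.0307), lost without Late 1, Late 3, Reactivated 1 or Reactivated 3 (0.0569 to 0.137). Htr3a, its obligatory partner and a marker of an interneuron class, passed in no comparison, at 19.3 ± 0.187 in Basal and 22.7 ± 2.51 in Late. Htr2c, Htr5a, Htr6 and Htr7 also passed in none. Htr2c, a Gq/11-coupled receptor that is abundant in choroid plexus, averaged 65.5 ± 14.7 (Basal), 72.5 ± 21.1 (Early), 76.7 ± 5.59 (Late) and 99.9 ± 31.2 (Reactivated). The 6 choroid plexus markers summed to 1010 to 1650, 686 to 2660, 650 to 683 and 1270 to 2170 in the same order.

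Grouped by G protein, the receptors that couple to Gi/o went together in Late. The grouping is textbook knowledge and was made with these values known, so it carries no test. Of the 11 Gi/o-coupled genes tested, 9 rose and 0 fell in Late against Basal, beside 25.4% and 23.6% of all genes, with a median log2 fold change of 1.24 against -0.03 for all genes, and 11 of 11 values were above 0. Drd2 (0.71 ± 0.71) and Htr5a (0.27 ± 0.28) were the 2 that did not pass. In Reactivated, 5 of the 11 rose and 0 fell against Basal, beside 20.6% and 18.8% of all genes. The median was 0.94 against 0.02 for all genes, and 9 of 11 values were above 0. In Late against Early 8 of the 11 values were above 0 (median 0.61). In Reactivated 5 were above 0 against Early and 3 against Late, each with a median of -0.19. The count of 9 in Late was 9 with median-of-ratios scaling, 6 under the upper quartile, 6 under the total without Rn45s, 5 on unscaled values and 1 with the same total, and in all 5 of these the 11 values lay above the median of all genes. In Reactivated against Basal, 9 of the 11 did so under each of the 5. With the Rn45s share as a covariate, only Chrm4 and Htr1d of this class stayed called in Late against Basal, and only Adra2a and Chrm4 in Reactivated. The calls in Late of Chrm2 and Htr1b were lost in 11 of 24 and 15 of 23 alternatives.

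The other classes given here were mixed, and counts of the Gs class are not reported here. Of the 8 Gq/11-coupled genes tested, 2 rose and 1 fell in Late against Basal, beside 25.4% and 23.6% of all genes. Their median was -0.33 against -0.03 for all genes. Among the 6 neuronal nicotinic subunits tested, 0 rose and 2 fell in Late, beside the same shares, with a median of 0.06. Among the 4 muscle subunits tested, 1 fell in Late, beside 23.6% of all genes. In Reactivated against Basal 3 of them fell, beside 18.8% of all genes, and their median was -1.46 against 0.02. Whether the classes differ from one another was not tested.

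**Figure D4:**
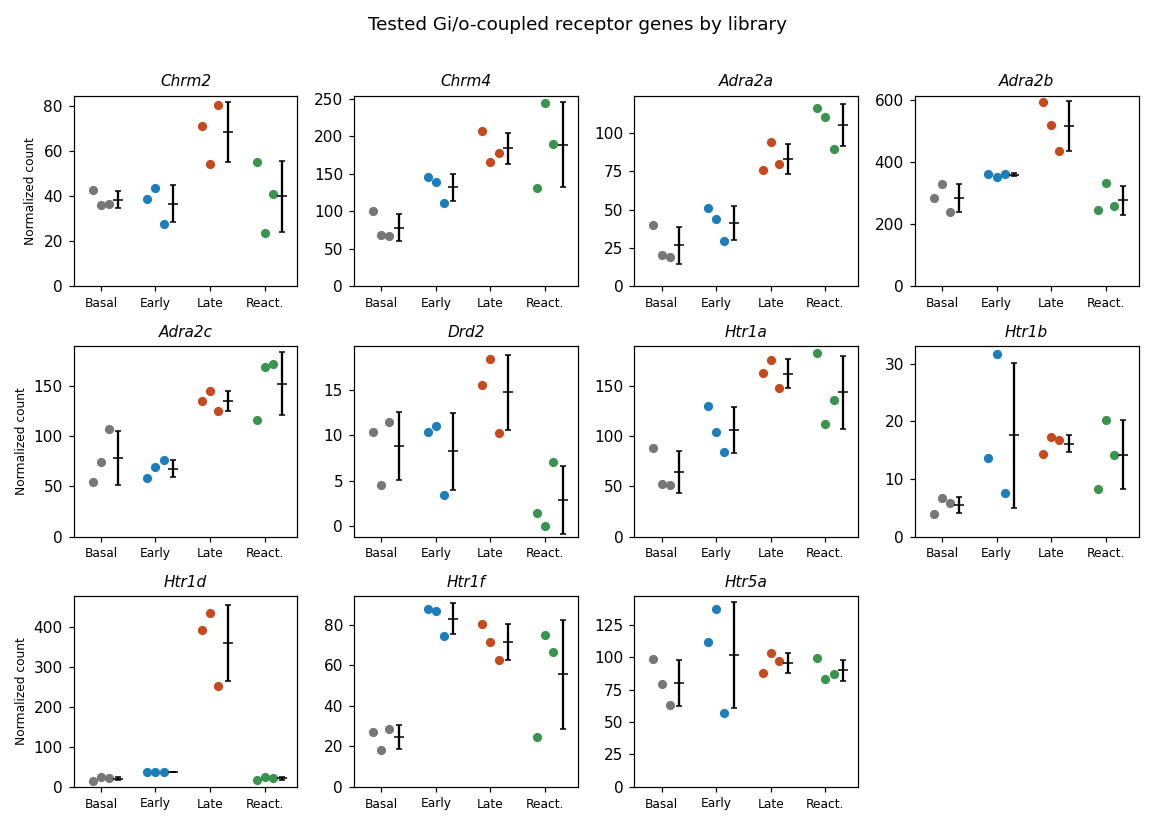
Normalized counts per library (points, 3 per group) of the 11 tested Gi/o-coupled receptor genes, with mean and SD as black bars; each panel has its own axis. The Late points lie above the Basal points in 9 panels, and overlap them for Drd2 and Htr5a.

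**Figure D5:**
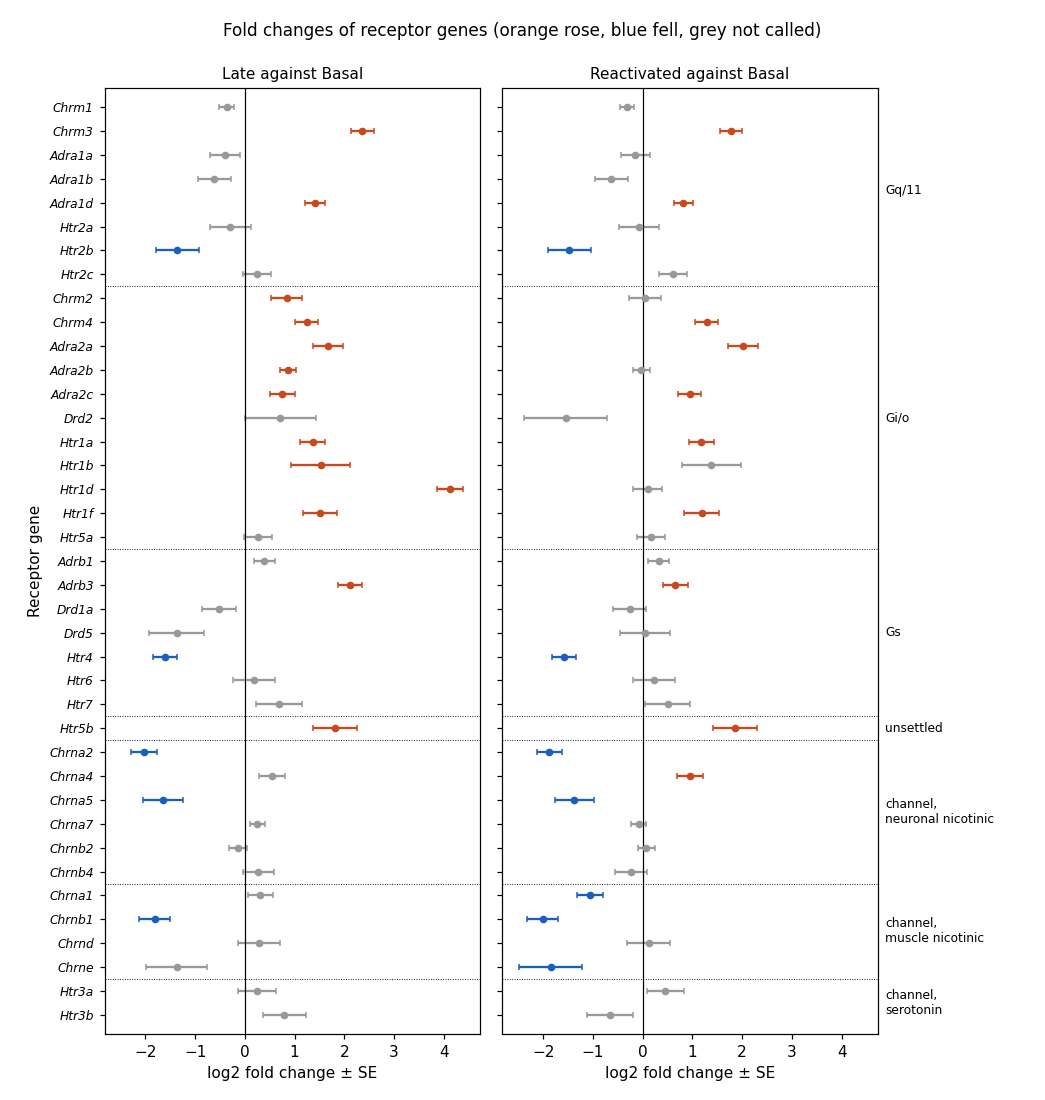
Points give the edgeR log2 fold change of 39 tested receptor genes against Basal and bars its SE, for Late at the left and Reactivated at the right; dotted lines divide the coupling classes. The Gi/o block lies to the right of 0 (Late), and Htr1d, at 4.13 (Late), is near 0 (Reactivated).

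The signalling partners of these receptors were followed in lists of genes. Of 18 genes of the Gq/11 pathway, 10 rose and 0 fell in Late against Basal and 12 rose and 0 fell in Reactivated, with medians of 0.69 and 0.70. Of all genes, 25.4% rose and 23.6% fell in Late and 20.6% and 18.8% in Reactivated, with medians of -0.03 and 0.02, and the list counts below are to be read against the same shares. The alternatives were checked for the receptor genes only, so the calls of all these lists and their genes rest on TMM scaling alone. Scaling to the same total shifted the median of all genes to -0.87 in Late and -0.46 in Reactivated. With the Rn45s covariate, 1.31% and 3.99% of all genes passed. Kcnq5, a potassium channel subunit of the M-current that muscarinic receptors close, rose from 196 ± 21.1 (Basal) to 717 ± 68.5 (Early) (3.66-fold, adjusted p 2.52e-05), 1030 ± 118 (Late) (5.26-fold, adjusted p 5.34e-08) and 479 ± 7.99 (Reactivated) (2.44-fold, adjusted p 3.71e-05), and no group overlapped another. Prkcb, a protein kinase C isoform, also rose in all 3 groups, 2.27-fold in Early, 1.60-fold in Late and 1.80-fold in Reactivated. Gnaq, the alpha subunit of Gq, rose 2.08-fold in Late (adjusted p 4.48e-05) and 1.71-fold in Reactivated (adjusted p 0.00108).

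Of 9 Gi/o pathway genes, 4 rose and 3 fell in Late and 4 rose and 2 fell in Reactivated. Gnaz, an alpha subunit of the Gi family, was 370 to 400 (Basal), 600 to 668 (Early), 1910 to 2800 (Late) and 909 to 1530 (Reactivated), and each group lay apart from the others. Gnaz rose 6.31-fold in Late against Basal (2.66 ± 0.20, adjusted p 2.45e-07) and fell 1.87-fold in Reactivated against Late (adjusted p 0.00296). Gnai1, another Gi alpha subunit, rose 2.54-fold in Late and 2.64-fold in Reactivated. Kcnj6, a subunit of the potassium channels that these receptors open, fell 1.63-fold in Late (adjusted p 0.000959) and 1.86-fold in Reactivated (adjusted p 0.000391), while Kcnj9, another such subunit, fell in Early only among the comparisons with Basal (1.51-fold, adjusted p 0.00757). Of the 4 Gs pathway genes, Gnas, the alpha subunit of Gs, rose 2.98-fold in Reactivated against Basal (adjusted p 1.52e-05) and 1.96-fold against Late (adjusted p 0.000275). Gnal, the related alpha subunit known from olfactory and striatal cells, fell 2.08-fold in Late and 1.67-fold in Reactivated, and Caly, which binds dopamine receptors, fell 1.39-fold in Late. Ppp1r1b, the phosphatase inhibitor downstream of dopamine and cyclic AMP, was 98.6 to 274 in Reactivated and 27.2 to 49.5 in Basal, a 4.11-fold rise (adjusted p 0.000529).

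RGS proteins shorten the signal of Gi/o and Gq. Of 17, 4 rose and 1 fell in Late against Basal, with the risers near the 25.4% of all genes, and 7 rose and 2 fell in Reactivated, beside 20.6% and 18.8% of all genes. Rgs17 was 243 to 348 (Basal), 256 to 403 (Early), 1110 to 1710 (Late) and 313 to 525 (Reactivated), and Rgs20 was 119 to 139, 137 to 148, 803 to 1070 and 178 to 449. Both of these, members of the RZ subfamily, which acts on Gnaz and Gi, were thus highest in Late in every library. Rgs17 rose 4.71-fold (adjusted p 3.48e-06) and Rgs20 7.02-fold (adjusted p 3.17e-06) in Late against Basal, and in Reactivated against Late they fell 3.48-fold and 3.42-fold. Rgs11 rose 3.6-fold and Rgs9 fell 2.45-fold in Late against Basal. Among 8 receptor kinases and arrestins, 3 rose and 2 fell in Late: Grk6 rose 2.19-fold, Arrb1, an arrestin, fell 1.66-fold, and Grk4 fell 2.92-fold (from 18000 ± 689 to 6170 ± 614, adjusted p 3.26e-06), while Grk1, known from the retina, fell 2.35-fold in Reactivated. The Basal level of Grk4 was above that of the neuron marker Camk2a (11000 ± 230). Overlapping genes were looked up for the receptor genes only, so whether all these reads belong to Grk4 is not known. Among 9 tested genes for chaperones and modulators of nicotinic receptors, 2 rose and 2 fell in Late. Lynx1, which dampens nicotinic receptors, rose 2.07-fold in Early, 1.83-fold in Late and 2.29-fold in Reactivated, and its relative Ly6h rose 3.20-fold in Late and 2.28-fold in Reactivated. Tmem35, a chaperone of the alpha-7 receptor, fell 2.26-fold in Late (adjusted p 0.0218), and Ly6e, also of that family, rose 2.29-fold in Early (adjusted p 0.0464).

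Genes that make, carry or break down the transmitters were mostly low. Of 21 such genes 12 were tested, 2 rose and 5 fell in Late against Basal, and 2 rose and 4 fell in Reactivated, with medians of -0.66 and -0.41, beside 23.6% of all genes that fell in Late and 18.8% in Reactivated. Not tested were Th, with a highest count of 15, Slc18a3 (11), Slc5a7 (8), Dbh (7), Pnmt (6), Ddc (4), Tph2 (4), Slc6a3 (4) and Slc6a4 (1). Maoa, which breaks down serotonin and noradrenaline, was 1440 to 2080 (Basal), 1520 to 2240 (Early), 553 to 655 (Late) and 781 to 840 (Reactivated), with no overlap between the earlier and the later groups. Maoa fell 3.02-fold in Late (adjusted p 4.99e-06) and 2.18-fold in Reactivated (adjusted p 0.000268) against Basal. Slc29a4, a low-affinity monoamine transporter, fell 3.91-fold in Early (adjusted p 0.000746), 6.97-fold in Late (adjusted p 6.07e-06) and 4.27-fold in Reactivated (adjusted p 0.000169), and Slc18a2, the vesicular monoamine transporter, fell 3.32-fold in Late and 4.37-fold in Reactivated. Chat, which makes acetylcholine, was 40.2 to 107 (Basal), 61.6 to 87.7 (Early), 164 to 328 (Late) and 168 to 472 (Reactivated), a rise of 3.75-fold (adjusted p 0.00128) and 4.29-fold (adjusted p 0.00122) in the 2 later groups. The vesicular transporter and choline uptake genes that go with Chat in cholinergic cells, Slc18a3 and Slc5a7, had the low counts given above.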

How the data were processed

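RNA from sorted neuronal nuclei was sequenced in 12 libraries, 3 per group, each a pool of mice; p-values measure the spread between these libraries. The deposited table of the authors holds 1 whole-number count per gene and library. Its name calls the values normalized, but library totals differ, so they were taken as raw counts. The submitters' processing notes name Bowtie2 2.0, Cufflinks 2.2, DESeq2 and mm9 without roles. The tool and annotation behind the counts, and whether strand was used, were not given in the sources used here. Per the labels' protocols, libraries were made with a stranded total RNA kit with ribosomal cDNA depletion and 15 PCR cycles, while the series' design text names SmartSeq2.

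Genes that reached a count of 10 in 3 or more libraries were fitted with edgeR 4.0.16 (R 4.3.3, limma 3.58.1; TMM scaling, quasi-likelihood test, 4 group means over all 12 libraries, Benjamini-Hochberg adjustment over 15668 genes, threshold 0.05). The SE is the log2 fold change divided by the square root of F. Tested on simulated data for Late against Basal (15462 genes), the fit recovered 195 of 200 genes changed 4-fold, with 11 false calls. The simulation had a fixed dispersion of 0.04, changes up or down at random and no shift of Rn45s between groups. In the data 49.1% of genes passed in that comparison and Rn45s differed, so these figures do not give the error rates of the results here. Alternatives were other scalings, filters, DESeq2 1.42.0, an Rn45s covariate, a replicate block and leaving out each library. Deviations from the group means correlated at 0.132 to 0.461 in the 3 same-numbered pairs of Basal and Early, each over 0.1, and at -0.378 to 0.209 in the others, so replicate numbers were taken to pair these groups. This pairing comes from the data, not the labels. Receptor genes that passed in some comparison were named with all their values, as were up to 4 genes of each pathway list, those of lowest p in the test of any difference among the groups. The members and lists were chosen with earlier results of these data known. Results for 2 genes that this rule names are not reported here, though the counts include them.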

Additional observations from a re-analysis of the deposited data

How the results depend on the processing

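Across 69 calls and 25 alternatives, 9 calls held in all (among them Chrm3 and Htr1f in Early against Basal, Htr1d in Late against Basal, Adra2a and Chrm4 in Reactivated against Basal, and Adrb3, Chrna1 and Htr1d in Reactivated against Late). Of 1657 checks, 1435 kept direction and call, 212 kept direction only and 10 reversed. Scaling to the same total reversed Adra2b (0.00) and Adra2c (-0.06) in Late against Basal and Adra2b (-0.24) and Chrm3 (-0.05) in Late against Early. The Rn45s covariate reversed Htr2b in Late against Basal (0.66) and, against Early, Chrm3 (-0.58), Chrna2 (0.09), Chrnb1 (0.30), Htr2a (0.37) and Htr2b (0.42). With it, receptor genes passing numbered 2 in Late and 3 in Reactivated against Basal, 0 in Late and 0 in Reactivated against Early, and 13 for any difference; the cause was not tested. On unscaled values 11 passed in Reactivated against Basal, 9 in Late and 5 in Reactivated against Early, and 4 in Reactivated against Late. Against Early, Reactivated gave 14 with the same total and 13 without Rn45s. Leaving out 1 library gave, against Basal, 2 to 4 (Early), 16 to 21 (Late) and 13 to 18 (Reactivated), 8 (without Late 2) to 18 in Late and 5 (without Early 1) to 11 in Reactivated against Early, 5 to 8 in Reactivated against Late and 18 to 24 for any difference. In Early against Basal, where the replicate numbers were taken from the data to pair the libraries, the block in those groups alone gave 11 calls. There 4 of 6 libraries correlated best with their own number, so the pairing is uncertain. In the other 5 comparisons at least 1 same-numbered pair correlated under 0.1, so the numbers were not taken to pair them, although in Reactivated against Late 6 of 6 libraries correlated best with their own number (0.057 to 0.153). The replicate block over all 12 libraries gave 2, 20, 16, 16, 7 and 7 calls in the 6 comparisons (Early, Late and Reactivated against Basal, Late and Reactivated against Early, Reactivated against Late) and 18 for any difference. Leaving out Basal 3 and Early 3 together, chosen after seeing the data, gave 3, 20, 18, 16, 9 and 8, and 21. Depth limits the genes with few counts, such as Drd2, Chrne and Htr1b.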

Other observations

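The summed normalized counts of all 49 receptor genes were 4146 ± 366.5 (Basal), 4770 ± 212.4 (Early), 5781 ± 301.5 (Late) and 4521 ± 254.2 (Reactivated) (mean ± SD, n = 3). Among the genes too low to test, Chrng, the fetal muscle subunit, was 0 in 9 libraries and had normalized counts of 9.64 (Reactivated) 1, 7.92 (Reactivated) 2 and 2.51 (Early) 3. Chrna3, a subunit of ganglionic receptors, was 14.6, 18.6 and 5.85 in the Early libraries. Chrm5, the fifth muscarinic receptor, was 21.9, 6.21 and 5.01 in Early.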
